A study of Mus musculus with 22 samples.

Results

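Chromatin domain boundaries that lay beside both CTCF-based loops and enhancer or promoter loops were examined in mouse erythroblasts as the genome refolded after mitosis, with CTCF present or degraded. The boundaries were chosen by position and by the authors' loop categories. The midpoint of the 10 kb boundary bin had to lie within 20 kb of an anchor midpoint of a structural loop and within 20 kb of an anchor midpoint of a CRE loop, with no anchor of a dual-function loop in that distance. In all, 241 of 6376 boundaries (3.78%) met the rule, on all 20 chromosomes in the table, with 26 on chromosome 1, 20 on chromosome 11 and 3 on chromosome 15. They are called structural/CRE boundaries here.

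Chromatin contacts were measured in G1E-ER4 cells by in situ Hi-C, in which DNA fragments that touch in the nucleus are joined and the joined ends are sequenced. This is a subline of G1E, a proerythroblast line without GATA1, and both CTCF alleles were fused to AID-mCherry, so that auxin leads to degradation of CTCF where the plant receptor OsTiR is present. All groups carried these tagged alleles and a retroviral OsTiR, as OsTiR-IRES-GFP in prometaphase, early-G1 and mid-G1 cells and as OsTiR-IRES-GFP-MD, where MD is a mitotic degron, in ana/telophase cells, and all had been arrested with 200 ng/ml nocodazole. Without auxin and with auxin (written -auxin and +auxin), sorted cells were taken in prometaphase (0 min), ana/telophase (30 min, given as 25 min in the protocol), early-G1 (60 min) and mid-G1 (120 min after release). The +auxin cultures received auxin during the arrest and after release. Each mid-G1 condition had 3 libraries and each other condition 2, which makes 18 libraries in 8 conditions.

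The authors merged the libraries of a condition before boundaries and loops were measured. The tables used here hold 1 value per boundary and map, so no difference between -auxin and +auxin cells can be set against the spread between replicates, and no test was run. Maps of single replicates, of which each condition had more than 1, were not analysed here. The tables hold no contact counts, and the depth behind a single value is unknown. The SD beside a median was taken over the medians of the chromosomes with at least 10 values each, and it describes the genome and not the cultures. Boundaries and loops were measured on the same maps.

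A boundary separates stretches of chromatin that contact themselves more than each other. CTCF bound at boundaries halts the cohesin complex as it extrudes DNA, and pairs of such sites form the anchors of structural loops. Enhancers and promoters, the cis-regulatory elements or CREs, also contact one another and form loops of their own. In the authors' categories a structural loop has CTCF and cohesin at both anchors and CREs at no more than 1 of them. A CRE loop has CREs at both anchors and CTCF with cohesin at no more than 1, and a dual-function loop has both at both ends. A structural/CRE boundary therefore combines loops of the first and second kinds without a loop that is both.

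The sequence under the boundaries was searched for the core of the CTCF consensus, because structural loops are anchored at CTCF sites by definition. An exact match to the 12-letter CTCF core consensus, 8 letters fixed and 4 with a choice of 2 bases, was found on either strand in the 30 kb around 87 of 241 structural/CRE boundaries (36.1%, 95% Wilson interval 30.3 to 42.3%). Exact matches occurred in 13.0% of all 85033 genome windows of the same length. The 30 kb window is narrower than the 20 kb allowed on either side for an anchor, so a match need not lie at an anchor. The matches of the boundaries named in this report are shown to give the letters and the strand in which they lie at 3 such places, in mm9 coordinates (NCBIM37 assembly), 5′ to 3′ on the strand of the match, with the core in capitals and 20 bases on either side. Near Btg2, the matches at chr1:135945492-135945543 on the minus strand and chr1:135956461-135956512 on the plus strand flanked the boundary midpoint. In Gm11627, they lay at chr11:102434262-102434313 on the plus strand and chr11:102440185-102440236 on the minus strand. The structural anchor of this boundary, at chr11:102450001-102460000, lay outside the window. At Safb2, 1 match lay at chr17:56698026-56698077 on the minus strand.
Btg2 boundary, minus strand: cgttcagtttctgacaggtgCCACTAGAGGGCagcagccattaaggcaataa
Btg2 boundary, plus strand: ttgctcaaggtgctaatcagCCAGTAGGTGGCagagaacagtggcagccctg
Gm11627 boundary, plus strand: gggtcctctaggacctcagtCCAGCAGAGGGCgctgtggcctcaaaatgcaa
Gm11627 boundary, minus strand: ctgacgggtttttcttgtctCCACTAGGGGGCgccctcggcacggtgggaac
Safb2 boundary, minus strand: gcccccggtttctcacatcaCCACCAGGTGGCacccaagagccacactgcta

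The share with a match at structural/CRE boundaries was close to that at boundaries with dual-function anchors (41.2% of 1205) or with structural anchors only (40.9% of 1014). Boundaries with CRE anchors only (13.6% of 441) and boundaries with none of these 3 kinds of anchor (13.4% of 3475) were near the genome share. In the 10 kb bin alone, 17.8% of structural/CRE boundaries held an exact match, beside 4.71% of genome windows of that length. A match is a description of letters and not of binding, and 98.8% of structural/CRE boundaries held the core with up to 1 letter off, as did 84.7% of genome windows. Of the boundaries with an exact match whose structural loops all left downstream, 20 had matches on the plus strand alone and 11 on the minus strand alone. Where all structural loops left upstream, 15 had plus-strand matches alone and 16 minus-strand matches alone.

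Structural/CRE boundaries were among the strongest boundaries in the maps and built up stepwise after mitosis. Boundary strength was used as deposited. It is ΔIS, the peak of the unlogged insulation score in the 120 kb on either side minus the score at the boundary itself. In -auxin cells the median ΔIS went from 0.127 ± 0.0167 in prometaphase through 0.524 ± 0.0930 in ana/telophase and 0.847 ± 0.137 in early-G1 to 0.962 ± 0.158 in mid-G1 (SD over 14 chromosomes). The medians of all boundaries in the same maps were 0.0937, 0.277, 0.422 and 0.499. In mid-G1 the structural/CRE boundaries ranged from 0.231 to 2.17, with quartiles of 0.686 and 1.23. ΔIS was higher at each stage than at the one before it at 188 of the 241 boundaries (78.0%), and at 53.1% of all boundaries. The authors kept only domains that stood out more from their surroundings in some post-mitotic map than in prometaphase. That filter favours such a rise.

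Set against the other kinds, structural/CRE boundaries resembled dual-function boundaries, whose mid-G1 median without auxin was 0.988 ± 0.0789. Structural-only boundaries stood at 0.753 ± 0.100 and CRE-only boundaries at 0.667 ± 0.109. Boundaries with none of these anchors had a median of 0.220 ± 0.0443. The difference between structural/CRE and dual-function medians was smaller than the spread over chromosomes.

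**Figure D1:**
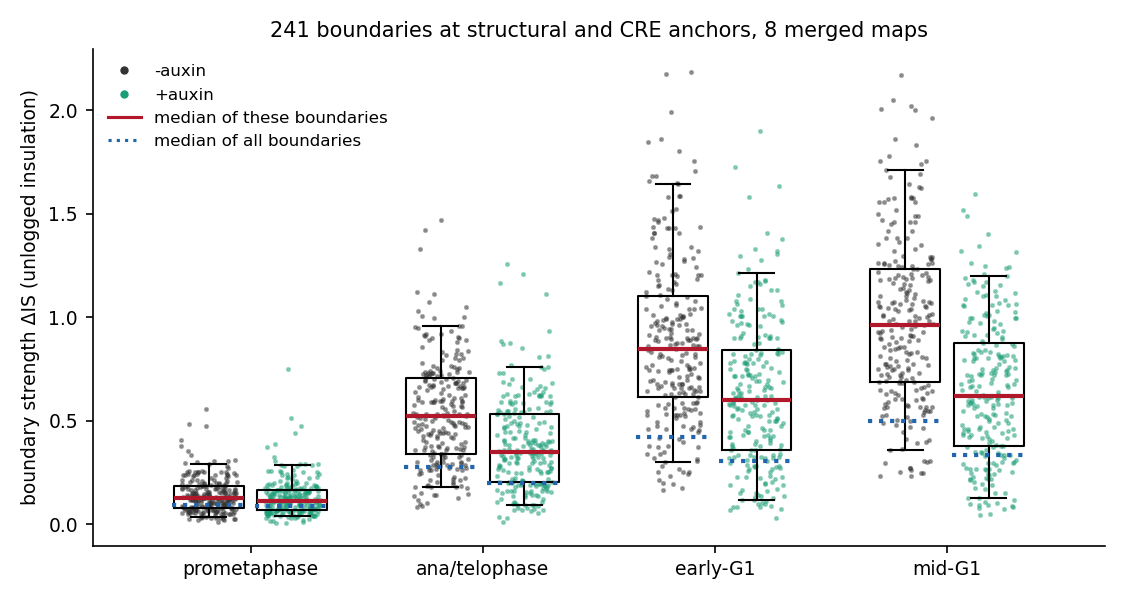
Boundary strength ΔIS (y axis, unlogged insulation) of the 241 structural/CRE boundaries in the 8 merged maps (x axis, cell cycle stage), each point 1 boundary, boxes spanning the quartiles and whiskers the central 90%. The medians (red) climb from 0.127 in prometaphase to 0.962 in mid-G1 without auxin and from 0.114 to 0.618 with auxin, and lie above those of all boundaries (dotted) in every map.

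Recovery was expressed as the share of the prometaphase to mid-G1 gain in mean ΔIS that had been reached. Structural/CRE boundaries had reached 47.6% ± 4.64 of it by ana/telophase and 88.1% ± 3.39 by early-G1 in -auxin cells (SD over 14 chromosomes). For all boundaries the shares were 48.1% and 86.7%. In +auxin cells the structural/CRE boundaries had reached 48.9% ± 7.47 and 96.4% ± 5.21 of their own, smaller, gain. For all boundaries in +auxin cells the shares were 50.5% and 95.7%. The shares of structural/CRE boundaries in the 2 treatments differed by less than the spread over chromosomes in ana/telophase and by more than either SD in early-G1.

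With CTCF degraded, structural/CRE boundaries were formed but most were weaker. In +auxin cells their median ΔIS went from 0.114 ± 0.0173 in prometaphase to 0.349 ± 0.0470 in ana/telophase, and was 0.600 ± 0.101 in early-G1 and 0.618 ± 0.126 in mid-G1. The median of log2(+auxin / -auxin), taken boundary by boundary without a pseudocount, was -0.10 ± 0.23 in prometaphase. From ana/telophase to mid-G1 it was -0.55 ± 0.13, -0.51 ± 0.12 and -0.62 ± 0.13. In mid-G1, 207 of 241 structural/CRE boundaries (85.9%, beside 75.5% of all boundaries) had the lower value with auxin, and the quartiles of the change were -1.04 and -0.24. The authors had moved -auxin boundaries to the local minimum of insulation in mid-G1 without auxin, which favours a lower value with auxin. How much this placement adds to the direction of the change was not tested. The change was below 0 at all 3 post-mitotic stages at 187 boundaries (77.6%, beside 54.3% of all boundaries), above 0 at all 3 at 26 (10.8%, beside 10.7%), and mixed at 28.

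A change of at least 2-fold is used here as a size, since it carries no error. In prometaphase 31 structural/CRE boundaries (12.9%) were at least 2-fold weaker with auxin, beside 17.7% of all boundaries, and 15 (6.22%) at least 2-fold stronger, beside 13.0%. In ana/telophase 53 were weaker (22.0%, beside 19.3%) and 0 stronger (beside 6.81%). In early-G1 57 were weaker (23.7%, beside 20.9%) and 1 stronger (beside 6.41%). In mid-G1 62 were weaker (25.7%, 95% Wilson interval 20.6 to 31.6%, beside 25.5%) and 2 stronger (0.830%, beside 4.47%). After mitosis the share at least 2-fold weaker was therefore near that of all boundaries. This background is not matched to structural/CRE boundaries in strength. It includes 719 boundaries (11.3%) of the authors' cluster 5, which they regarded as mostly spurious and left out. It also includes 3475 boundaries with none of these anchors, of which 20.6% were at least 2-fold weaker in mid-G1. The share at least 2-fold stronger in mid-G1 was also low at dual-function (1.08%) and structural-only boundaries (0.690%), and higher at CRE-only boundaries (5.22%) and those with none of these anchors (6.91%). Of the 53 at least 2-fold weaker in ana/telophase, 40 (75.5%, beside 67.6% of the 1228 among all boundaries) were so in mid-G1 too, and 35 of the 241 (14.5%, beside 10.3%) were at least 2-fold weaker at all 3 post-mitotic stages.

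**Figure D2:**
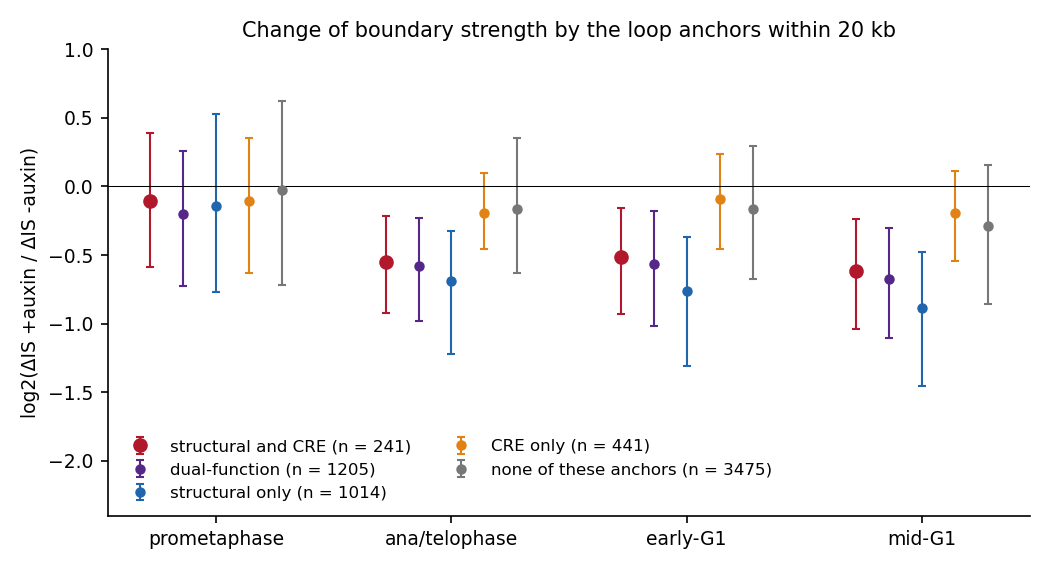
Median change of boundary strength with auxin (y axis, log2 of +auxin over -auxin ΔIS) at each stage (x axis) for boundaries grouped by the loop anchors within 20 kb; points are medians and bars reach from the lower to the upper quartile over boundaries. After mitosis the structural/CRE boundaries (red, -0.62 in mid-G1) lie beside dual-function boundaries (-0.68), between structural-only (-0.89) and CRE-only boundaries (-0.19).

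The size of the change placed structural/CRE boundaries between those with 1 kind of anchor. In mid-G1 the median change was -0.89 ± 0.17 at structural-only boundaries, of which 44.4% were at least 2-fold weaker. At CRE-only boundaries it was -0.19 ± 0.12, and 9.30% were at least 2-fold weaker. Dual-function boundaries, at -0.68 ± 0.12 and 29.9%, were the most alike. The median over all boundaries was itself -0.48, so that relative to it structural/CRE boundaries stood 0.14 lower on the log2 scale. The order structural-only, dual-function, structural/CRE, CRE-only held with anchors counted within 10, 20 or 30 kb. These differences have no test, because loci of 1 pair of maps are not replicates of a treatment. The kinds were also defined by loops called in these same maps. Of all structural loops 94.6% were called without auxin only, and of all CRE loops 30.4% with auxin only. What the calls add to the order was not tested.

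The authors' boundary clusters, made from boundary strengths in these maps, describe the range among structural/CRE boundaries. Cluster 2 held 117 (48.5%) of them, cluster 3 held 71 (29.5%), cluster 1 held 47 (19.5%), cluster 4 held 6 (2.49%) and cluster 5 none, while of all boundaries 31.9%, 27.1%, 20.4%, 9.25% and 11.3% were in these clusters in the same order. Median mid-G1 ΔIS went from 0.858 to 0.225 in cluster 1, from 1.09 to 0.643 in cluster 2 and from 0.834 to 0.827 in cluster 3 when -auxin and +auxin cells are set side by side. In cluster 4 it was 0.450 without and 0.839 with auxin. Since the clusters were built on these values, the split is a description.

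**Figure D3:**
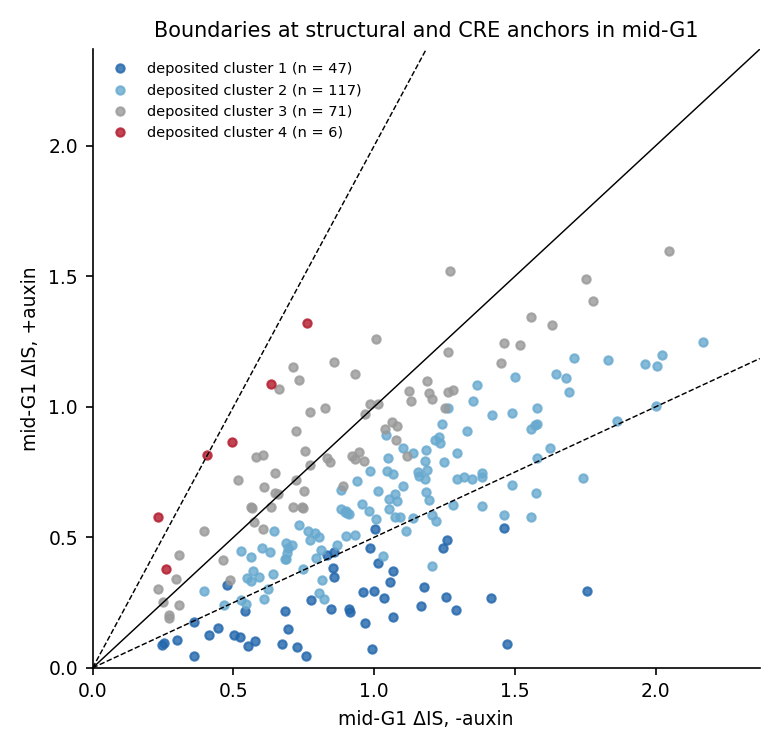
Mid-G1 boundary strength without auxin (x axis, ΔIS) against that with auxin (y axis, ΔIS) for the 241 structural/CRE boundaries, coloured by the deposited cluster, with the line of equal values (solid) and those of 2-fold difference (dashed). Of these, 62 lie on or under the lower dashed line and 2 on or above the upper one.

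At the threshold of the rule, the 149 boundaries whose farther required anchor lay over 15 and up to 20 kb away had a median mid-G1 ΔIS of 0.981 without and 0.624 with auxin. The 159 boundaries just outside, with that anchor over 20 and up to 30 kb away and no dual-function anchor within 20 kb, had medians of 0.877 and 0.509. A further 395 boundaries had all 3 kinds of anchor within 20 kb and were counted as dual-function boundaries, with 1.11 and 0.669. The choice of distance weighed on the membership, since 80 of the 241 had both anchors within 10 kb.

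At structural/CRE boundaries the median strength of structural loops was lower with auxin, while that of CRE loops differed little. Among loops called in only 1 treatment, the median was higher in the treatment of the call for both kinds. Around the 241 boundaries lay anchors of 413 structural loops, with a median size of 280 kb, and of 381 CRE loops, with a median size of 220 kb. Loop strength was taken as deposited, as observed over locally expected contacts averaged over the summit and its neighbours, where 1 means no enrichment. The structural loops had median strengths of 1.07, 1.80, 2.30 and 2.68 from prometaphase to mid-G1 without auxin, and of 1.03, 1.19, 1.30 and 1.36 with auxin. Their median mid-G1 log2 change was -0.98 ± 0.18, beside -0.86 ± 0.10 for structural loops elsewhere. The difference of the medians was within the SD over chromosomes of the former and beyond that of the latter. In mid-G1 199 of the 413 (48.2%) were at least 2-fold weaker, beside 39.6% of all structural loops, and 0 were at least 2-fold stronger, beside 0 of all structural loops. Most of these loops entered the table through a call made without auxin and so were chosen where they were high, and the counts are given as a description only. The median change was -1.02 for the 380 called without auxin only, -0.46 for the 25 called in both treatments and 0.18 for the 8 called with auxin only.

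For CRE loops at the same boundaries the medians with and without auxin lay close together, over loops that differed in both directions. They were 1.08, 1.61, 1.72 and 1.68 without auxin and 1.06, 1.53, 1.66 and 1.57 with auxin, for a median mid-G1 change of -0.10 ± 0.12, beside -0.02 ± 0.04 for CRE loops elsewhere. Of the 381, 9 (2.36%) were at least 2-fold weaker, beside 1.25% of all CRE loops, and 2 (0.525%) at least 2-fold stronger, beside 0.711%. Boundary by boundary, the median change of the structural loops was below that of the CRE loops at 226 of 241, and the difference between them had a median of -0.80 with quartiles of -1.13 and -0.45. The strongest structural loop exceeded the strongest CRE loop at 190 boundaries in mid-G1 without auxin, and at 90 with auxin. Of the structural loops, 92.0% were detected without auxin only, against 50.1% of the CRE loops, of which 25.5% were detected with auxin only. Most loops thus entered where they were high, and these boundary counts and differences are given as a description only. Medians of loops elsewhere also lay apart, at -0.86 for structural and -0.02 for CRE loops.

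**Figure D4:**
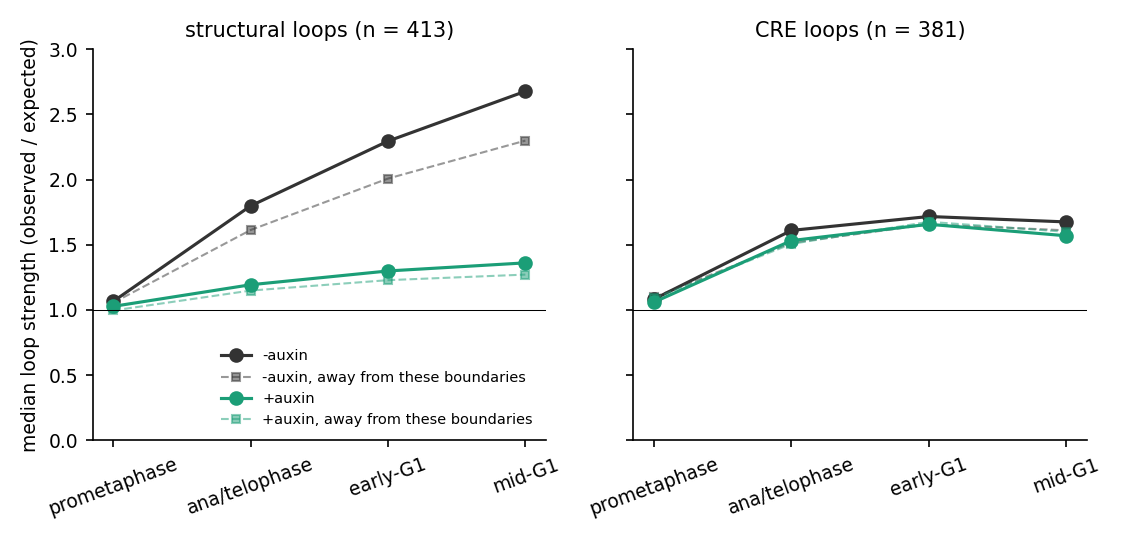
Median loop strength (y axis, observed over expected contacts) by stage (x axis) for the 413 structural loops (left) and 381 CRE loops (right) with an anchor within 20 kb of a structural/CRE boundary, without (black) and with auxin (green); dashed lines show the loops of the same category away from these boundaries. In mid-G1 the structural loops stand at 2.68 and 1.36, and the CRE loops at 1.68 and 1.57.

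The authors' detection calls separated the treatments at structural loops, as at structural loops in general. Of the 413 structural loops, 380 (92.0%) were detected without auxin only, 25 (6.05%) in both treatments and 8 (1.94%) with auxin only, beside 94.6%, 3.87% and 1.49% of all structural loops. Of the 381 CRE loops, 191 (50.1%) were detected without auxin only, 93 (24.4%) in both and 97 with auxin only (25.5%, Wilson interval 21.4 to 30.1%), beside 44.5%, 25.2% and 30.4% of all CRE loops. A CRE loop detected with auxin only was present at 82 of the 241 boundaries. The call and the strength can part: CRE loops detected without auxin only still had a median strength of 1.44 in mid-G1 with auxin, against 1.84 without. By call, the median mid-G1 change of CRE loops was -0.34 for those detected without auxin only, 0.02 for those detected in both and 0.28 for those detected with auxin only (1.27 without and 1.57 with auxin). In -auxin cells 85 of the CRE loops (22.3%) and 70 of the structural loops (16.9%) were first detected in ana/telophase, and 73 (19.2%) and 180 (43.6%) as late as mid-G1. Over all CRE and structural loops these shares were 20.2% and 14.8% in ana/telophase and 18.8% and 46.7% in mid-G1, close to those at structural/CRE boundaries.

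CRE loops that ran alongside a structural loop had a lower median log2 change than the others, from a higher strength without auxin. This split was chosen after values of single loops had been seen. In 29 of the 381 CRE loops both anchors lay within 20 kb of both anchors of 1 structural loop, with a median mid-G1 change of -0.39 (2.40 without auxin, 1.61 with it). For 69 with the farther anchor over 20 and up to 50 kb away the change was -0.22, from 2.02 to 1.73. For the other 283 it was -0.03, from 1.58 to 1.52. The 3 groups overlap, with quartiles of -0.74 and -0.04 in the first and -0.32 and 0.26 in the last. They also differed in call, with 75.9%, 63.8% and 44.2% detected without auxin only in the same order. CRE loops with that call had a median change of -0.34, and what the calls add to the order was not tested. Whether contacts of the neighbouring structural loop enter the pixels of such CRE loops was not tested.

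The loops left the boundaries on either side. All structural loops left downstream at 104 boundaries, upstream at 97, and to both sides at 40. Boundaries with structural loops to both sides had a median mid-G1 ΔIS of 1.07 without and 0.601 with auxin (change -0.87, 16 of 40 at least 2-fold weaker), whereas those with loops to 1 side stood at 0.913 and 0.590 (downstream, -0.59) and at 0.955 and 0.719 (upstream, -0.53). The structural and CRE loops all left to the same side at 104 boundaries and to opposite sides at 56. The median change was -0.61 in both of these sets. CRE loops on the side of the structural loops (193) had a median mid-G1 change of -0.15, and those on the opposite side (125) of 0.00.

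Boundaries with more structural loops were stronger without auxin. The median mid-G1 ΔIS was 0.857 at the 129 boundaries with 1 structural loop, 0.965 at 66 with 2, 1.08 at 29 with 3 and 1.18 at 17 with 4 to 6. With auxin the same sets stood at 0.611, 0.650, 0.626 and 0.669, so that the differences between them were smaller. As 92.0% of the structural loops were called without auxin only, the sets were formed largely on -auxin maps. That favours larger differences in -auxin cells. The median changes were -0.58, -0.58, -0.82 and -0.84, and 25.6%, 19.7%, 31.0% and 41.2% were at least 2-fold weaker. By number of CRE loops the order ran the other way, with -0.69 at 149 boundaries with 1 CRE loop, -0.57 at 59 with 2 and -0.52 at 33 with 3 to 7, of which 30.2%, 23.7% and 9.09% were at least 2-fold weaker.

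Some CRE loops spanned a structural/CRE boundary, with an anchor over 20 kb away on each side. There were 190 of these, over 110 boundaries, and they measured 650 kb at the median. In mid-G1 their median strengths were 1.76 and 1.74 without and with auxin, for a median change of 0.07 ± 0.15, within the spread over chromosomes. With distances of 10 kb in the rule the change was -0.03, and for the 69 loops of at most 500 kb it was 0.27, beside 0.16 and 0.15 for loops of that size spanning dual-function and structural-only boundaries. Of the 190, 84 (44.2%) were detected with auxin only, beside 40.0% of the 847 spanning dual-function boundaries, 35.9% of the 682 spanning structural-only boundaries, 32.5% of the 295 spanning CRE-only boundaries and 26.1% of the 917 spanning boundaries with none of these anchors. A loop can span boundaries of several kinds, and sizes differed, with medians between 525 and 810 kb.

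The share of structural/CRE boundaries with a protein-coding gene start lay between those of structural-only and dual-function boundaries. A transcription start of such a gene, in the GENCODE vM1 annotation, lay in the 10 kb bin of 38 of 241 (15.8%, Wilson interval 11.7 to 20.9%), beside 765 of all 6376 boundaries, 25.1% of dual-function, 9.66% of structural-only and 18.4% of CRE-only boundaries. In the 30 kb window the share was 52.7%, beside 31.8% of all boundaries, 61.1% of dual-function, 28.2% of structural-only and 60.3% of CRE-only boundaries. A further 45.6% of the bins held an exon without a start (29.0% of all boundaries), 6.22% lay in introns (10.6%) and 32.4% held no protein-coding gene (48.4%). The 38 boundaries with a start had a median mid-G1 ΔIS of 1.05 without and 0.773 with auxin (change -0.48), and the 78 without any gene 0.963 and 0.598 (change -0.66).

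Of 77 erythroid and haematopoietic genes listed for this work, 75 were matched in the annotation, and Btg2 is described as one whose start lay within 50 kb of a structural/CRE boundary. Btg2 encodes an antiproliferative protein, and its start lay 20.7 kb from the midpoint of the boundary at chr1:135950001-135960000, whose sequences are given above. This boundary held 7 CRE loops, the most of any, and 5 structural loops. All 7 CRE loops shared the anchor bin chr1:135970001-135980000, 20 kb from the boundary midpoint and so at the limit of the rule. The structural loops were anchored in other bins, within chr1:135930001-135950000. ΔIS was 0.138, 0.576, 0.936 and 1.05 without auxin and 0.141, 0.401, 0.715 and 0.646 with auxin. All 5 structural loops were weaker in mid-G1 with auxin, by log2 values between -0.53 and -1.42. All 7 CRE loops were stronger, by values between 0.04 and 0.66, the largest being a loop of 260 kb that went from 1.53 without to 2.42 with auxin.

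**Figure D5:**
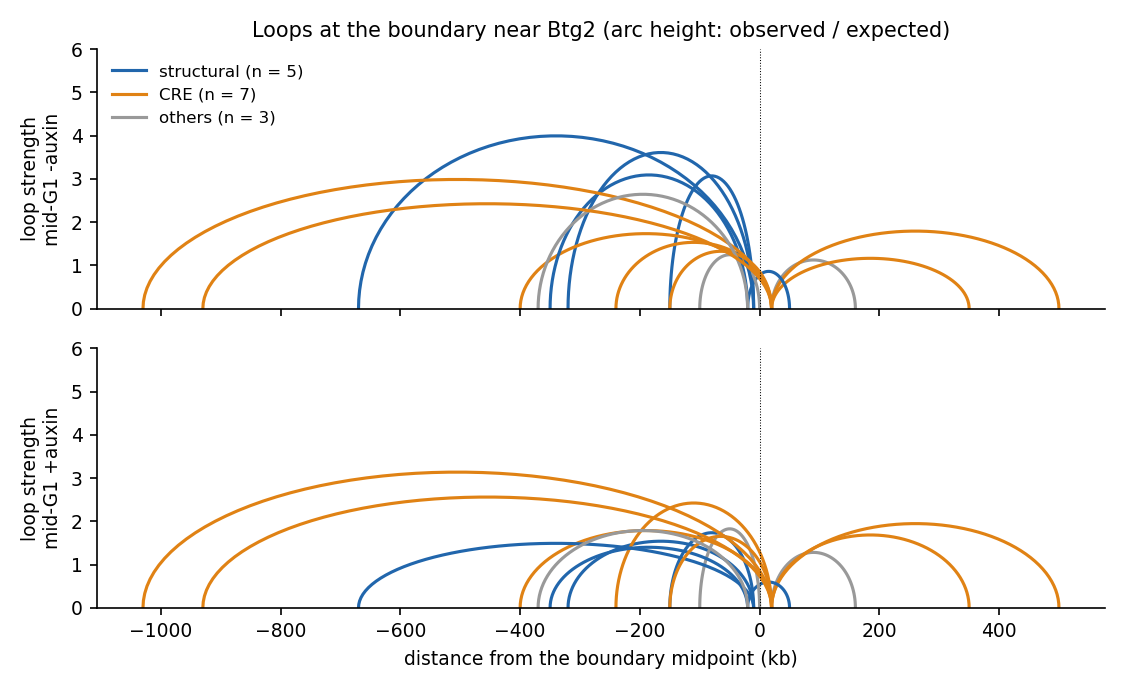
Loops with an anchor within 20 kb of the structural/CRE boundary near Btg2 in mid-G1, drawn as arcs between anchor midpoints (x axis, distance from the boundary midpoint in kb) whose height is the loop strength (y axis, observed over expected), without auxin (top) and with auxin (bottom). The 5 structural arcs (blue) are lower with auxin, and the 7 CRE arcs (orange) are as high or higher.

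The strongest structural/CRE boundaries in mid-G1 without auxin kept more than 1 unit of ΔIS with auxin. At chr6:149060001-149070000, with no gene in the bin, ΔIS was 0.236, 1.47, 2.19 and 2.17 without auxin and 0.374, 1.16, 1.41 and 1.25 with auxin. The boundary at chr14:27480001-27490000 held the start of Pde12, a mitochondrial phosphodiesterase gene, and exons of Arf4, and had 0.253, 1.33, 2.18 and 2.05 without and 0.155, 1.11, 1.90 and 1.59 with auxin. An exon of Lyn, a Src family kinase gene, lay at chr4:3740001-3750000, where ΔIS was 0.119, 0.899, 1.71 and 2.02 without and 0.0625, 0.498, 0.959 and 1.20 with auxin. The boundary in Safb2, at chr17:56700001-56710000, held 5 structural loops and 1 CRE loop, and had 0.107, 0.946, 1.85 and 2.00 without and 0.154, 0.662, 1.38 and 1.16 with auxin. Their mid-G1 changes of -0.80, -0.36, -0.75 and -0.79 lay within the range of the other structural/CRE boundaries, and the Safb2 boundary bore the printed minus-strand match.

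At the other end, 4 boundaries were almost absent with auxin. The one at chr4:136190001-136200000, with no gene in the bin, held 6 structural loops, the highest number, and ΔIS was 0.149, 0.657, 1.26 and 1.47 without and 0.0963, 0.0280, 0.0289 and 0.0898 with auxin (mid-G1 change -4.03). Its 6 structural loops were all weaker, by log2 values between -0.90 and -1.69, and its single CRE loop went from 2.32 without to 1.77 with auxin. At chr12:73770001-73780000, 9.19 kb from the start of the dehydrogenase gene Dhrs7, ΔIS was 0.0970, 0.204, 0.494 and 0.758 without and 0.187, 0.0721, 0.101 and 0.0459 with auxin (-4.05). The bin at chr8:87970001-87980000 held no gene, and had 0.104, 0.683, 1.01 and 0.990 without and 0.0584, 0.160, 0.109 and 0.0738 with auxin (-3.75). At chr10:128130001-128140000, which holds the start of the endosomal GTPase gene Rab5b and exons of the cell cycle kinase gene Cdk2, it was 0.0900, 0.364, 0.712 and 0.725 without and 0.118, 0.0333, 0.0986 and 0.0791 with auxin (-3.20). In mid-G1 all 4 stood with auxin below the prometaphase median of 0.114.

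Of the 26 boundaries whose +auxin value was the higher one in ana/telophase, early-G1 and mid-G1 alike, the 4 with the largest mid-G1 differences each held 1 structural loop. In Gm11627, at chr11:102430001-102440000, ΔIS was 0.0279, 0.140, 0.303 and 0.231 without and 0.132, 0.271, 0.491 and 0.577 with auxin (1.32). In an exon of Kank2, 10.3 kb from the start of the kinetochore gene Spc24, at chr9:21570001-21580000, it was 0.312, 0.482, 0.533 and 0.405 without and 0.283, 0.627, 1.01 and 0.813 with auxin (1.01). These were the 2 boundaries at least 2-fold stronger in mid-G1, and both were below the mid-G1 median without auxin. At the start of Pold3, which encodes a subunit of DNA polymerase delta, at chr7:107270001-107280000, it was 0.0957, 0.183, 0.412 and 0.496 without and 0.0994, 0.361, 0.849 and 0.865 with auxin (0.80).

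The fourth lay at the start of Atp4b, the beta subunit gene of the gastric proton pump, at chr8:13390001-13400000. There ΔIS was 0.151, 0.493, 0.678 and 0.762 without and 0.287, 0.761, 1.30 and 1.32 with auxin (0.79). Its structural loop of 340 kb went from 3.63 without to 1.71 with auxin in mid-G1, while its CRE loop of 380 kb went from 3.04 to 2.73. The boundary was thus stronger where its structural loop was weaker. Every structural loop was weaker in mid-G1 with auxin at 230 boundaries, and at 198 of these the boundary was weaker too. Of the 34 boundaries that were not weaker in mid-G1, 32 had only weaker structural loops. Both counts lie near the shares of all 241 boundaries, of which 85.9% were weaker and 230 had only weaker structural loops. Of all structural loops, 97.3% were weaker, so these counts do not link the change of a boundary to that of its loops.

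By number of structural loops, 2 boundaries held 6 and 7 held 5. The second boundary with 6 lay in an intron of Med12l, at chr3:58860001-58870000. Of those with 5, the 2 with the highest mid-G1 ΔIS without auxin were taken, which are the Safb2 boundary and one at chr8:69940001-69950000, with no gene in the bin. In Med12l ΔIS was 0.0635, 0.249, 0.629 and 0.642 without and 0.0719, 0.189, 0.369 and 0.358 with auxin (mid-G1 change -0.84), and the authors' methods name a translocation on this chromosome. On chromosome 8 it was 0.00992, 0.709, 1.07 and 1.26 without and 0.0509, 0.262, 0.332 and 0.271 with auxin (-2.21). Over all 9 boundaries with 5 or 6 structural loops the mid-G1 change ran from -0.51 to -4.03.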

How the data were processed

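Per the labels and the study's methods, the authors aligned in situ Hi-C reads to mm9 with HiC-Pro and Bowtie2, merged the replicates of each condition, balanced the maps with juicer_tools, called boundaries with rGMAP, moved those of -auxin cells to the local insulation minimum in mid-G1, and then added boundaries of +auxin cells that had no -auxin boundary nearby. Boundary strength, ΔIS, was deposited as an insulation signal of 0 or more. Loops came from a modified HICCUPS, and their strength was deposited as a ratio, contacts observed over those expected from the surroundings. The category of a loop, the stage at which it was first called and the cluster of a boundary are the authors' labels.

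Here distances were measured between bin and anchor midpoints. No pseudocount was added before the log2 ratio of +auxin to -auxin values, and 1 of 6376 boundaries has no ratio in prometaphase and 1 in mid-G1. All coordinates lay within the NCBIM37 chromosome lengths. Wilson intervals cover counting error only, and neighbouring boundaries share loops. Functions were tested on simulated data. Named boundaries are the 4 strongest in mid-G1 -auxin cells, the 4 with the largest falls (ΔIS at least 0.3 without auxin) and the 4 with the largest rises (at least 0.3 with auxin) of the same direction at all post-mitotic stages, the 4 with most structural loops, and those within 50 kb of a listed gene's start, of which 1 is not reported here. Members, lists and this rule were chosen with earlier results of these data known. The 4 libraries of triptolide-treated cells were not analysed here. Python 3.11.15, numpy 2.4.6, pandas 2.3.3, scipy 1.17.1 and matplotlib 3.10.9 were used.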

Additional observations from a re-analysis of the deposited data

How the results depend on the processing

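No paired analysis was possible because the tables used here hold values of maps merged over the replicates of each condition, and for the same reason no library could be left out. Maps of single replicates were not analysed here. Of 84 recomputed values for 13 results, 19 could not move, since cluster 5 and boundaries under a strength of 0.2 include no structural/CRE boundary. Of the other 65, 54 stayed within the SD over chromosomes, the Wilson interval or, for the number of boundaries, 1.5 times. With anchors within 10 kb the rule gave 101 boundaries in place of 241, 0% at least 2-fold stronger in mid-G1, and a median change of spanning CRE loops of -0.0295, the 1 change of sign, within its SD. Spanning loops of at most 500 kb had 0.27. Centring on all boundaries gave a median mid-G1 change of -0.14. A pseudocount of 0.1 gave 19.5% at least 2-fold weaker, and a threshold of 1.5-fold gave 53.1% weaker and 3.32% stronger. With 10 kb summits only, 20.3% of CRE loops were detected with auxin only. The CTCF core was matched in 17.8% of bins alone and in 98.8% of windows with 1 mismatch, and 52.7% of windows held a gene start. The smaller or larger window, the extra letter and the lower fold change these shares by construction. The cause of the other shifts was not tested. Leaving out chromosome 3, run for 10 of the results, moved none of these beyond the bounds. Without replicates or contact counts, no single boundary's difference has an error.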
